A study of Mus musculus with 2 samples.

Results

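Claudins, keratins, cadherins, connexins and the other proteins of epithelial junctions were followed across 3 sorted populations of mouse small intestinal epithelium. Members were taken by symbol from the platform's annotation: claudins, keratins, tight junction proteins (Tjp), cadherins, plakophilins and connexins by their family stems, and Ocln, F11r, Dsp, Dsg2, Dsc2, Jup, Epcam, Ctnna1, Ctnnb1, Ctnnd1, Cgn and Marveld2 by name. Of 16391 genes named on the array, 79 were members: 18 claudins, 5 other tight junction genes, 26 cadherins and catenins, 8 desmosomal genes, 12 connexins and 10 keratins. Cgn, Krt8 and Krt18 were not found under those names and were not analysed here. A further 14 genes fell under the same stems or names only after older symbols had been updated. Epcam, annotated by an older symbol, was among these, and they were kept apart from the counts of members. Probes whose updated symbol was that of a member were averaged into it, which took the members' probes from 80 to 85.

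The mice carried 3 alleles: Atoh1-crePGR, a Cre under Atoh1 that RU486 activates, Lgr5-EGFP-IRES-creERT2, and a Rosa26 tdTomato reporter that Cre switches on. All populations came from mice given RU486 intraperitoneally on 5 days in a row. Cells pooled from 4 mice were sorted 20 days after recombination, and no age was stated in the labels. EGFP-only cells (Tmt-GFP+) had Lgr5-EGFP and no tdTomato, double-positive cells (Tmt+GFP+) had both, and tdTomato-only cells (Tmt+GFP-) had descended from cells with Atoh1-driven Cre and lacked EGFP. Total RNA of the double-positive cells on the first array, and of the tdTomato-only cells on the second, was labelled with Cy3 and set against EGFP-only RNA in Cy5, with no dye swap. As a model, the design rests on an Atoh1-driven Cre and an Lgr5 knock-in reporter, so the populations are only as pure as these drivers and the sort, and no population without any Cre allele was measured.

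In the intestinal epithelium, claudins, occludin and JAM-A (F11r) build the tight junction, the belt near the lumen that sets which ions and solutes pass between cells. E-cadherin (Cdh1), bound inside the cell by the catenins, forms the adherens junction beneath it, and desmosomes anchor keratin filaments from cell to cell. Connexins form gap junction channels that let small molecules pass directly between neighbours. The make-up of these structures is known to change as cells leave the crypt for the villus, with Cldn2 known as a crypt claudin and Krt20 as a keratin of differentiated cells.

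Each population was measured as 1 pooled sample on 1 array, or on both arrays for EGFP only, so there was no replicate, no test and no p-value. A log2 ratio is the Cy3 population over EGFP only after background correction (normexp) and loess, and a gene counted as higher from a log2 ratio of 1 and as lower from -1, which is 2-fold. Double-positive and tdTomato-only cells were compared with each other by the difference between the arrays' log2 ratios. Both comparisons with EGFP only share that population. Because bright spots gained or lost with the normalization, each direction was also checked under 6 normalizations, including the authors' deposited log2 ratios. Spot medians are given before normalization. With no dye swap, a gap between a Cy3 and a Cy5 spot median cannot be told apart from a difference between the dyes. In such bulk samples, fewer cells of a type and less RNA per cell cannot be told apart.

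A probe was taken as above background where its spot median, the scanner's intensity for that channel, exceeded the mean plus 2 SD of the array's blank spots. By this limit 46 of the 79 members were above background in all 4 channels, 10 in some and 23 in none. Of the 26 cadherins and catenins, 13 were above background in no channel, namely Cdh5 (the endothelial cadherin), Cdh6, Cdh7, Cdh8, Cdh9, Cdh11, Cdh12, Cdh13, Cdh15, Cdh16, Cdh20, Cdh22 and Cdh23. The claudins Cldn1, Cldn5, Cldn10, Cldn17 and Cldn18, the connexins Gja1, Gja5, Gja10 and Gjb6, and the keratin Krt25 were likewise in no channel. All 5 other tight junction genes and all 8 desmosomal genes were above background in every channel. For a member above background in only 1 channel of an array, a lower bound on the fold was set. No such bound reached 2-fold, and Cldn11 had the highest, at least 1.10-fold higher in EGFP-only than in tdTomato-only cells.

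Few members differed by 2-fold. In double-positive cells 2 of 48 members with a ratio were at least 2-fold higher than in EGFP-only cells (Gjc1 and Krt20) and 0 lower, where 5.1% of all 11775 genes with a ratio were higher and 0.34% lower. In tdTomato-only cells 4 of 46 were higher (Gjc1, Krt20, Cldn4 and Krt27) and 0 lower, against 6.15% and 1.19% of 11382 genes. By these ratios Krt20 reached 2-fold only through a probe added by its updated symbol, 9030623C06Rik. The Krt20 probe that matched by annotation, Krt21, had 0.67 and 0.31, and 2.37 and 1.25 in the authors' deposited table. Between tdTomato-only and double-positive cells 0 of 46 were higher and 1 was lower (Gjc1), against 0.813% and 0.283% of 11312 genes. Member counts were thus near the shares of all genes, and the members' median log2 ratios of 0.09, 0.04 and -0.02 stood beside -0.01, -0.01 and -0.02 for all genes. The medians depended on the normalization, and with plain median centring the first became -0.24 and the second -0.29, beside -0.21 for all genes in both. The split of calls moved too. With the authors' deposited log2 ratios, 4 members were higher and 1 lower in double-positive cells and 5 and 1 in tdTomato-only cells, and with median centring 2 and 1 in both. Gjc1 and Krt20 were among those higher than EGFP only in every one of these settings, the added members being Cdh4 and Gjb5 (deposited), and Krt15 (deposited) or Cdh3 (median centring) was the lower one.

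**Figure D1:**
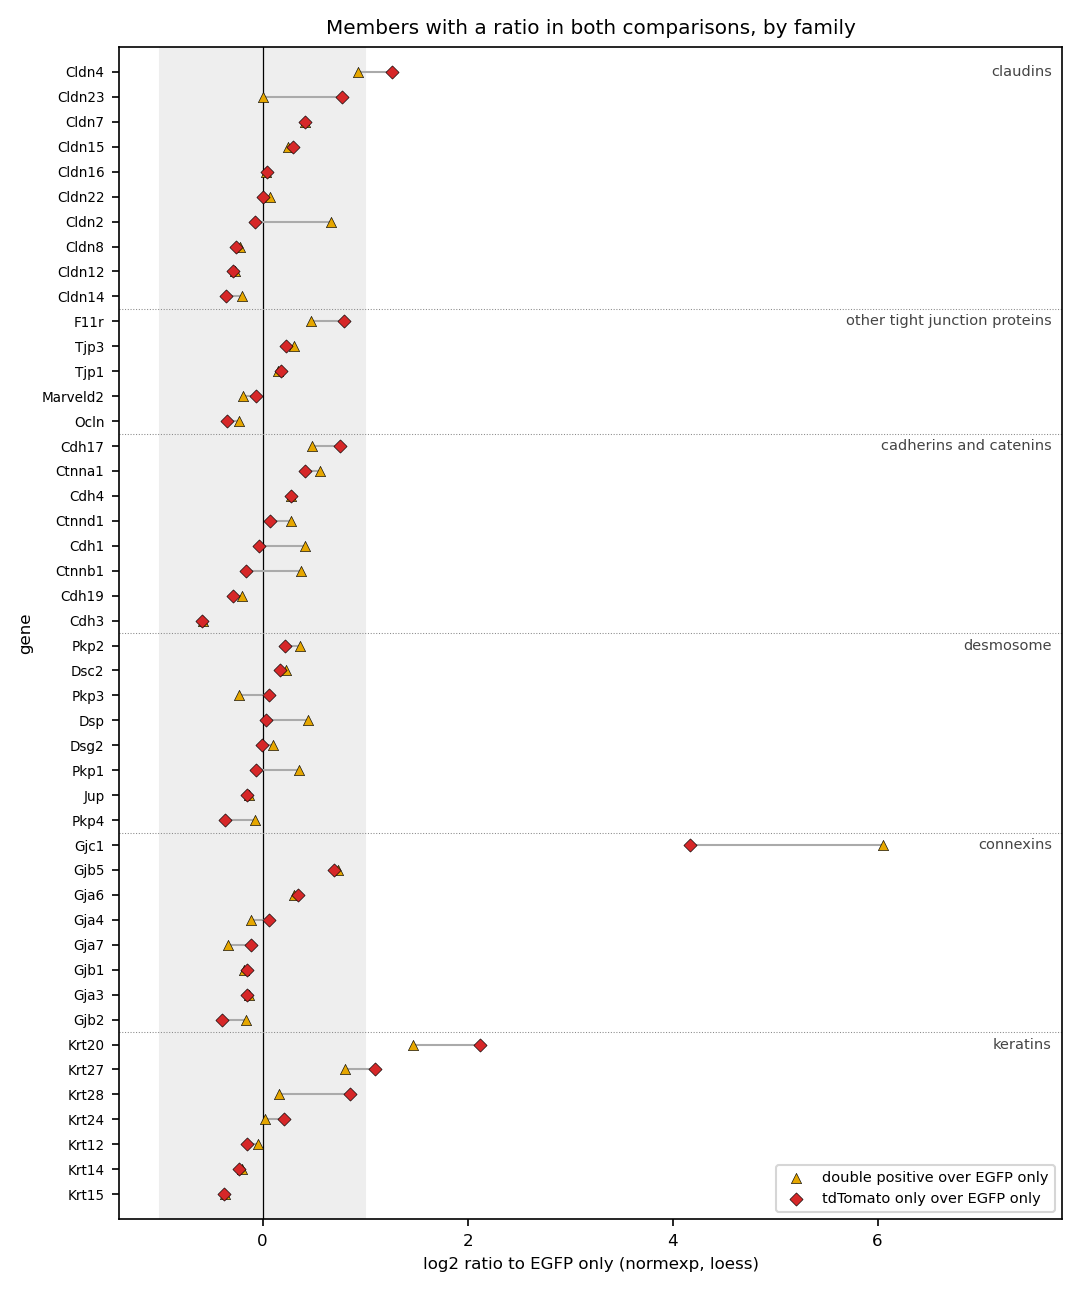
Log2 ratio to EGFP only (horizontal axis, normexp and loess) of each member with a ratio in both comparisons, with double positive as triangles and tdTomato only as diamonds, grouped by family, 1 array per comparison. The shaded band runs from -1 to 1, and only Gjc1, Krt20, Cldn4 and Krt27 have a point outside it.

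Directions were compared over the 6 normalizations as well. In double-positive cells 10 of 48 members were above 0 and 18 below 0 under all 6, where 25.1% and 44.1% of all genes were. In tdTomato-only cells the counts were 13 and 18 of 46, beside 28% and 44.1%. In tdTomato-only against double-positive cells they were 14 and 23 of 46, beside 37% and 47.3%. The remaining members, 20, 15 and 9 in the same order, changed sign with the normalization.

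Among the claudins, Cldn4 was higher in both Cy3 populations than in EGFP-only cells. Cldn4, a claudin that tightens the paracellular barrier, had spot medians of 864.7 in EGFP-only and 1063 in double-positive cells on the first array, and of 781.2 in EGFP-only and 1283 in tdTomato-only cells on the second. Both Cy3 populations lay above their EGFP-only channel, and the order was EGFP only, double positive, tdTomato only. The log2 ratios were 0.93 and 1.26 (2.40-fold), above 0 under all 6 normalizations, with the second at 0.72 after median centring and 1.06 in the authors' deposited table.

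Cldn2, the cation- and water-permeable claudin of crypts, went the other way between the Cy3 populations. Its spot medians were 3849 in EGFP-only and 3337 in double-positive cells, and 3480 in EGFP-only and 2057 in tdTomato-only cells. The tdTomato-only channel was the lowest of the 4. The log2 ratios to EGFP only were 0.66 and -0.08, and tdTomato only against double positive was -0.74 (1.67-fold lower), negative under all 6 normalizations, from -0.76 to -0.61. Its ratios to EGFP only each changed sign with the normalization, to -0.15 in double-positive cells after median centring and to 0.015 in tdTomato-only cells with a normexp offset of 16.

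The 250 bases before the annotated starts of Cldn4 (chr5:134946935-134947184 on the minus strand), Cldn2 (chrX:139800558-139800807 on the plus strand) and F11r (chr1:171437311-171437560 on the plus strand) are given as examples. These 3 tight junction genes kept their order between the Cy3 populations under every normalization, but most others did too. Of 10 claudins 4 were above 0 and 4 below under all 6, and of 5 other tight junction genes 3 and 2, beside 37% and 47.3% of all genes. They come from RefSeq (GRCm38.p6), 5′ to 3′ on the gene's strand. Capitals mark matches on either strand to TATAAA (the TATA box), GGGCGG (the GC box), TTTATG (the CDX type), CTTTGA (the TCF/LEF type), CAAAGT (the HNF4 type), GATAAG (the GATA type) and CAGGTG (the E-box of SNAI and ZEB factors).
Cldn4: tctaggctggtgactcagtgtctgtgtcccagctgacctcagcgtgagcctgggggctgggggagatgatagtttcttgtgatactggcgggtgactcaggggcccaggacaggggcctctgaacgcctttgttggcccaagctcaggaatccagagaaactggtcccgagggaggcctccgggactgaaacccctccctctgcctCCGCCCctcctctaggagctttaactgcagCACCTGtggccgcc
Cldn2: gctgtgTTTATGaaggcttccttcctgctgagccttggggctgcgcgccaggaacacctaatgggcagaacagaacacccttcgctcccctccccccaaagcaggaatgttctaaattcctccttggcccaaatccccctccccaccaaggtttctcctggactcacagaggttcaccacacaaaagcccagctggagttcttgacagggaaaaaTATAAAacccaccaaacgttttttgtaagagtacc
F11r: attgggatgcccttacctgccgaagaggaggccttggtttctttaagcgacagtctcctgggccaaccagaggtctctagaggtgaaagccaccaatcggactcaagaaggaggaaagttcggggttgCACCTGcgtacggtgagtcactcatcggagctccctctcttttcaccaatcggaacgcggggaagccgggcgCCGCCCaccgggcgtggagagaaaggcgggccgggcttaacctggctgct
In this window Cldn2 held a TATA box, whose first base lay 35 bases before the start, and a CDX-type match, 244 bases before it. Cldn4 and F11r each held a GC box and an E-box match, with the GC box 44 and 50 bases before the start and the E-box 14 and 122 bases before it. Among 27025 genes, 13% held the TATA box, 32.9% the GC box, 11.1% the CDX-type match and 17.1% the E-box. Of the 56 members with a promoter entry, 10 held the TATA box (17.9%), 21 the GC box (37.5%), 8 the CDX-type match (14.3%) and 6 the E-box (10.7%). TCF/LEF-type letters stood in 6 (10.7%, beside 14% of all), HNF4-type letters in 9 (16.1%, beside 12.5%) and GATA-type letters in 4 (7.14%, beside 6.6%). A match is a run of letters and does not show that a factor binds.

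F11r, the adhesion molecule JAM-A, had spot medians of 1085 and 969 in EGFP-only and double-positive cells and of 1068 and 1255 in EGFP-only and tdTomato-only cells. Only the tdTomato-only channel was above its EGFP-only partner before normalization. Its log2 ratios were 0.47 and 0.79, the second above 0 under all 6 normalizations and the first at -0.12 after median centring. Cldn23, chosen here after its values were seen, had a tdTomato-only against double-positive ratio of 0.77 (1.70-fold). Its spot medians were 278.6 and 220.4 on the first array and 274.8 and 359.6 on the second, so that the double-positive channel was the lowest and the tdTomato-only channel the highest. This difference was positive under all 6 normalizations and 0.83 in the authors' deposited table.

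Cldn7 and Cldn15, the latter a sodium-permeable claudin of the small intestine, differed little. Cldn15 read 3092 and 2109 on the first array (EGFP only, double positive) and 2724 and 2112 on the second (EGFP only, tdTomato only), with log2 ratios of 0.25 and 0.30. Cldn7 read 2678 and 2072, then 2948 and 2432, with 0.42 and 0.41. The Cy3 channels were close to each other for both genes, and the sign against EGFP only turned negative after median centring, and for Cldn15 in the authors' deposited table as well. The other claudins with ratios in both comparisons (Cldn8, Cldn12, Cldn14, Cldn16 and Cldn22) lay between -0.35 and 0.08 after loess. Cldn11 had a ratio in double-positive cells alone (-0.06). Other settings took dim claudins further. Cldn8 was at -1.12 and -1.30 with blank subtraction, 2-fold lower in both, and Cldn22 at 0.88 and 0.57 in the authors' deposited table.

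Occludin (Ocln), a membrane protein of the same belt, was lower in both Cy3 populations under all 6 normalizations. Its spot medians were 833.3 in EGFP-only and 489.5 in double-positive cells, then 800.5 in EGFP-only and 465.3 in tdTomato-only cells. The Cy3 channels were alike and well under both EGFP-only channels, although log2 ratios after loess were -0.23 and -0.35, and -0.41 and -0.62 in the authors' deposited table. Tricellulin (Marveld2), which seals corners where 3 cells meet, was also below 0 in both, at -0.19 and -0.07. Of the scaffold proteins, Tjp1 (ZO-1) was slightly above 0 throughout, at 0.15 and 0.18, from dim spots of 103.8 and 111.6 and of 105.3 and 119.8. Tjp3 (ZO-3), with spots of 1414 and 1100 and of 1292 and 1034, had ratios of 0.30 and 0.23 that turned negative after median centring, the second also in the authors' deposited table (-0.05).

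**Figure D2:**
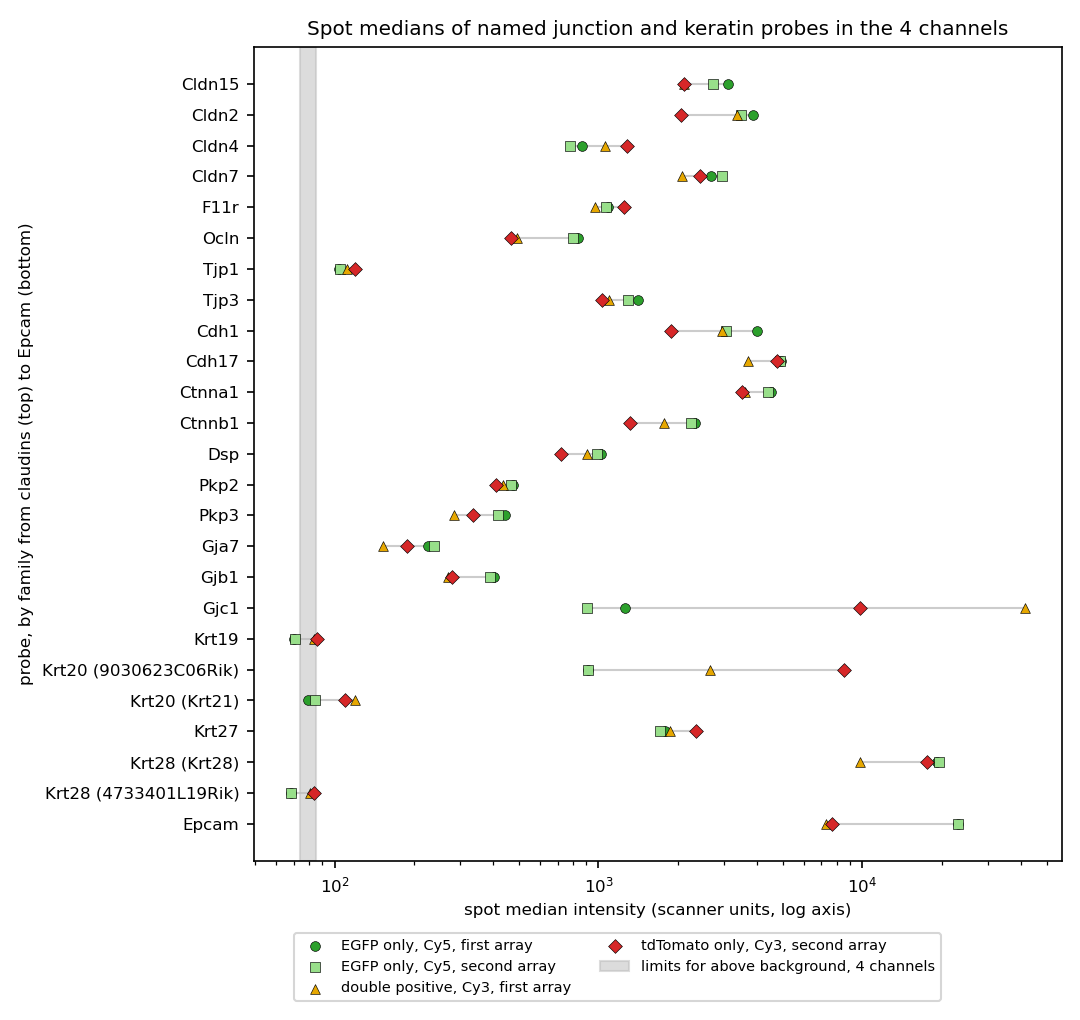
Spot median intensity (log axis, scanner units) of the named probes in the 4 channels, with EGFP only as a circle and a square, double positive as a triangle and tdTomato only as a diamond. Gjc1 runs from 901.3 to 41421 and Krt20 (9030623C06Rik) from 915.6 to 8505, while most other probes have their 4 channels close together. The grey band holds the limits for above background. Levels cannot be compared between probes, and those of Cy3 and Cy5 are not normalized to each other.

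At the adherens junction no cadherin or catenin reached 2-fold after normexp and loess in any comparison. Of 8 cadherins and catenins with a ratio in tdTomato-only against double-positive cells, 5 were below 0 under all 6 normalizations and 1 above, where 47.3% and 37% of all genes were. E-cadherin (Cdh1) had spot medians of 3989 in EGFP-only and 2937 in double-positive cells, and of 3055 in EGFP-only and 1876 in tdTomato-only cells. The tdTomato-only channel was the lowest, but the EGFP-only channels themselves differed. Their log2 difference, second over first array, was -0.38, and only 0.6075% of 15639 probes above background in both EGFP-only channels differed by more than 0.37. The log2 ratios were 0.42 and -0.04, and tdTomato only against double positive was -0.46, negative under all 6 normalizations.

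β-catenin (Ctnnb1), which links E-cadherin to actin through α-catenin and also carries Wnt signals to the nucleus, read 2317 and 1776 on the first array and 2240 and 1315 on the second. Here EGFP-only channels were alike and the tdTomato-only channel was the lowest. Its ratios were 0.37 and -0.16, and tdTomato only against double positive was -0.54, from -0.59 to -0.44 over the normalizations. α-catenin (Ctnna1), at 4495 and 3578 and then 4403 and 3487, had ratios of 0.56 and 0.41 and a difference of -0.15. p120-catenin (Ctnnd1), which stabilizes cadherins at the membrane, had 0.28 and 0.08 and a difference of -0.20. The differences of Ctnna1 and Ctnnd1 were small, though below 0 under all 6 normalizations.

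LI-cadherin (Cdh17), an intestinal cadherin that needs no catenins, ran opposite to Cdh1. Its spot medians were 4923 and 3682, then 4868 and 4763, so that before normalization the tdTomato-only channel was level with its EGFP-only channel and the double-positive channel lower. The log2 ratios were 0.48 and 0.75 and their difference was 0.27, positive under all 6 normalizations. P-cadherin (Cdh3), chosen here after its values were seen, was the lowest member in both comparisons after loess, at -0.58 and -0.60. Its spots were 1602 and 698.1, then 1500 and 695.7. Cdh3 was below 0 under all 6 normalizations, and -1.18 and -1.14 after median centring. Other members were lower in other settings, Krt15 in the authors' deposited table (-1.01 and -1.05) and Cldn8 with blank subtraction (-1.12 and -1.30). Of the remaining cadherins, Cdh4 and Cdh19 had ratios in both comparisons, between -0.29 and 0.27, and Cdh26 had one in double-positive cells alone (-0.03). Cdh4 and Cdh19 had dim spots, and other settings took them to 2-fold. Cdh4 was at 1 and 1.22 in the authors' deposited table, and Cdh19 at -1.23 in tdTomato-only cells with blank subtraction.

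Desmosomal genes differed little between the populations, and 7 of 8 were below 0 in tdTomato-only against double-positive cells, 6 of them under all 6 normalizations. This stood beside 47.3% of all genes below 0 under all 6. Desmoplakin (Dsp), the plakin that ties keratin filaments to the desmosome, had spots of 1026 and 906.7 and of 990.3 and 719. The tdTomato-only channel was its lowest, and the ratios were 0.44 and 0.04, with a difference of -0.41. Pkp1, a plakophilin of the plaque chosen here after its values were seen, had the largest difference of the family, -0.42. Pkp2 read 476.5 and 434.8, then 466.3 and 409.5, with a difference of -0.14. Pkp3, at 443.4 and 284.2 and then 416.7 and 336, was the exception at 0.29, positive under all 6 normalizations. The desmosomal cadherins Dsg2 and Dsc2 had -0.10 and -0.06, and plakoglobin (Jup), shared by desmosomes and adherens junctions, -0.02.

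Among connexins a probe annotated Gjc1 stood far apart. Its spot median was 1266 in EGFP-only and 41421 in double-positive cells on the first array, and 901.3 in EGFP-only and 9811 in tdTomato-only cells on the second. Both Cy3 channels were far above both EGFP-only channels, and double-positive cells were the highest. The log2 ratios were 6.05 (66.3-fold) and 4.17 (18.1-fold), and the authors' deposited table gave 5.59 and 3.85. By these ratios the gene ranked 1 of 11775 in double-positive and 20 of 11382 in tdTomato-only cells, and 3 of 12430 and 59 of 12490 by the deposited ratios. On each array 25 probes were saturated in Cy3, so that their ratios are lower bounds and these ranks are not exact.

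In tdTomato-only cells the level was 3.68-fold lower than in double-positive cells for this probe (log2 -1.88). The difference was -0.85 with quantile normalization, under 2-fold, and -1.90 to -1.64 with the other normalizations. The EGFP-only channels of this probe differed by -0.49 between the arrays. Its gene is not settled. Gjc1 is the current symbol of the connexin that the array also lists as Gja7, and Gjc1 was also an older symbol of another connexin, Gjd3. The probe annotated Gja7 gave 226.3 and 152.9, then 237.9 and 188.4, with log2 ratios of -0.34 and -0.11, so probes that current naming would place in the same gene gave opposite directions.

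The other connexins were dim or steady. Gjb1, a connexin of liver and gut epithelium, read 402.3 and 268.7, then 389.2 and 277.9, and had ratios of -0.18 and -0.15, below 0 under all 6 normalizations. Gjb2 was at -0.17 and -0.39, also below 0 throughout. Gjb5, chosen here after its values were seen, was above 0 under all 6, at 0.74 and 0.70, from spots near background (90.31 and 134.8, then 94.21 and 142.9). The authors' deposited table gave 1.85 and 1.62 for it. Gja3, Gja4 and Gja6 lay between -0.16 and 0.34 after loess. In the authors' deposited table Gja4, also near background, was at -0.28 and 0.75, and tdTomato only against double positive was 1.03.

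**Figure D3:**
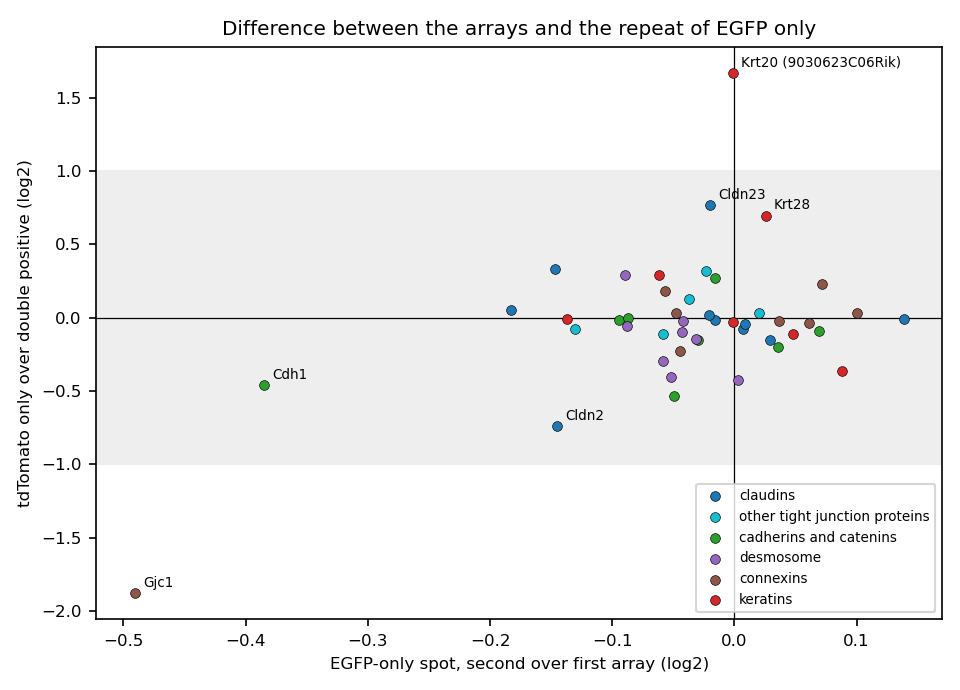
Each point is a member probe above background in all 4 channels, with the log2 difference between its EGFP-only spots (second over first array) on the horizontal axis and tdTomato only against double positive (log2) on the vertical axis, coloured by family. Gjc1 (-0.49) and Cdh1 (-0.38) are the probes whose EGFP-only spots differed most, while Krt20 (9030623C06Rik) lies at 1.67 with almost equal EGFP-only spots.

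EGFP-only RNA was read on both arrays, which gives the only repeat in the data. Log2 Cy5 levels were taken after normexp and loess, with the mean log2 intensity of both channels quantile-normalized between the arrays. That step makes the arrays' distributions of mean intensity alike. Over 15639 probes above background in both EGFP-only channels, these levels differed with an SD of 0.083. Of these probes, 4 were 2-fold apart. Both readings were in Cy5, so this SD does not measure the error of a Cy3 over Cy5 ratio. By log2 spot medians, 47 of 49 member probes above background in both repeated within 0.2, all but those of Gjc1 and Cdh1. The labels do not say whether both arrays received the same labelled extract, and this repeat holds no spread between mice.

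Krt20, the keratin of differentiated enterocytes and goblet cells, had the highest ratios to EGFP only of the keratins. It was read by a pair of probes that disagreed in size. The probe annotated 9030623C06Rik had spot medians of 916.4 in EGFP-only and 2657 in double-positive cells, then 915.6 in EGFP-only and 8505 in tdTomato-only cells. Its EGFP-only channels were equal, and the order was EGFP only, double positive, tdTomato only. The log2 ratios were 2.26 (4.80-fold) and 3.93 (15.3-fold), and tdTomato only against double positive was 1.67.

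The probe annotated Krt21, an older name of the same gene, was dim, with 79.53 and 119.6 on the first array and 84.52 and 109.5 on the second. Its Cy3 channels were above EGFP only on both arrays, at log2 ratios of 0.67 and 0.31, and the tdTomato-only channel did not exceed the double-positive one (-0.36). The mean of both probes gave 1.47 (2.76-fold) and 2.12 (4.35-fold), above 0 under all 6 normalizations. The bases before the Krt20 start (chr11:99438154-99438403 on the minus strand) are shown for this reason, in the same format.
Krt20: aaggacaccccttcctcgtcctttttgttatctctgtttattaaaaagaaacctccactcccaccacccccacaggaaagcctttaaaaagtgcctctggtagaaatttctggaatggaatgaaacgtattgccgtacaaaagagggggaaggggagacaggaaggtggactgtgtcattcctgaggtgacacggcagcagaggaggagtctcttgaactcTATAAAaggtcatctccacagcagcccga
It held a TATA box, whose first base lay 29 bases before the start.

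Enterocyte, goblet and Paneth cell markers were high in the same samples as Krt20, while most enteroendocrine and tuft cell markers were not. Paneth cell markers were 2-fold higher for 7 of 7 in double-positive and 6 of 7 in tdTomato-only cells (median log2 4.77 and 4.47). Of 9 enterocyte markers with a ratio, 7 were at least 2-fold higher in double-positive and 8 in tdTomato-only cells (median log2 2.37 and 3.18), and summed spot medians were 13194 in EGFP-only and 35156 in double-positive cells, then 13891 and 61769. Goblet cell markers were 2-fold higher for 7 and 8 of 9, some of them saturated in Cy3 (Spink4 in both populations, Tff3 and Zg16 in tdTomato-only cells). Stem cell markers had medians of -0.49 and -1.19. Enteroendocrine markers had medians of -1.18 and -0.51. At least 2-fold lower were 6 of 9 in double-positive and 1 of 9 in tdTomato-only cells, where 1 other was higher. Tuft cell markers had 0 at 2-fold and medians of -0.28 and -0.0025. The part of these cell types in the Krt20, Cldn4 and Cldn2 ratios was not tested.

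Other keratins were mixed. Krt27, a keratin known from the hair root sheath, read 1784 and 1868, then 1709 and 2338, with log2 ratios of 0.81 and 1.10 (2.14-fold). Only the tdTomato-only channel was clearly above its partner. Both ratios were above 0 under all 6 normalizations, but the second was 0.46 after median centring and 0.76 in the authors' deposited table, under 2-fold. Krt28, another root sheath keratin, had bright spots of 19150 and 9789, then 19493 and 17550. Its double-positive channel was the lowest, and tdTomato only against double positive was 0.70, positive under all 6 normalizations, whereas the ratios to EGFP only (0.16 and 0.85) changed sign with the normalization. A second Krt28 probe, annotated 4733401L19Rik, was above background in no channel, so the probes disagree on whether the gene is detected. Krt19, a main keratin of simple epithelia, was barely above background in the Cy3 channels (83.55 and 85.73) and not in Cy5 (69.95 and 70.87), and has no ratio. No probe sequences were at hand, so which genes the Krt19, Krt27 and Krt28 probes read was not checked. A spot at background therefore does not show that Krt19 was absent. Krt12, Krt14, Krt15 and Krt24 lay between -0.38 and 0.21 after loess, and Krt15 was at -1.01 and -1.05 in the authors' deposited table.

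Epcam, an adhesion molecule of the whole epithelium that also stabilizes claudins, was bright in every channel. Its spot medians were 23079 in EGFP-only and 7294 in double-positive cells, then 23082 in EGFP-only and 7677 in tdTomato-only cells. Both Cy3 channels were alike and well under both EGFP-only channels, which repeated closely. Its log2 ratios were below 0 under all 6 normalizations but differed in size, at -0.55 and -0.64 after loess, -1.19 and -1.30 in the authors' deposited table, and -1.60 and -1.58 after median centring. The bases before its start (chr17:87635729-87635978 on the plus strand) are shown because both of its Cy3 channels lay well under EGFP only.
Epcam: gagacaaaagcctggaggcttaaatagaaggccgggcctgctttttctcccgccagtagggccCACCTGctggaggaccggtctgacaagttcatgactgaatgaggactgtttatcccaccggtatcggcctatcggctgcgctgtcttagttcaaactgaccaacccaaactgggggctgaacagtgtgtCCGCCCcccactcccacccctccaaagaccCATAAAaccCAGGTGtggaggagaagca
They held a GC box 58, a CDX-type match 28 and E-box matches 19 and 187 bases before the start, measured to the first base of each.

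**Figure D4:**
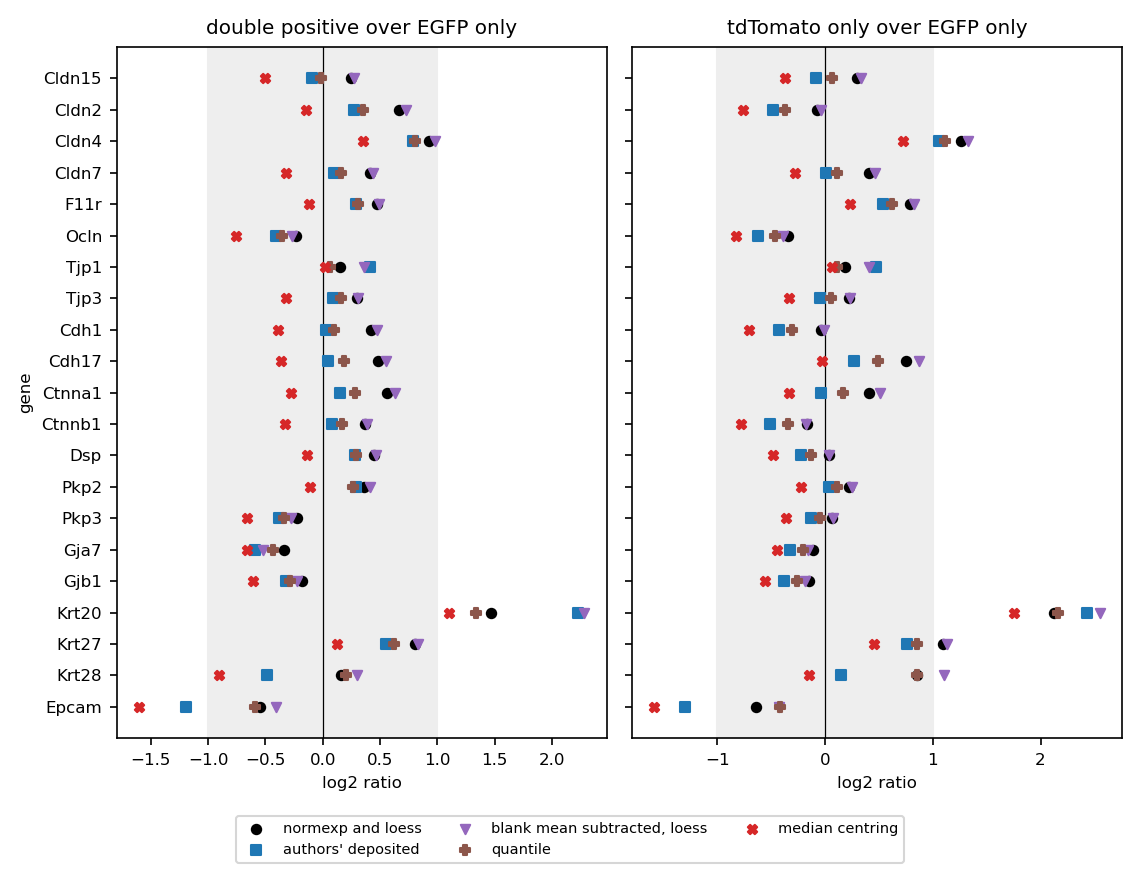
Log2 ratio to EGFP only of the named genes under 5 of the normalizations (normexp and loess, the authors' deposited ratios, blank mean subtracted with loess, quantile, and median centring), for double positive on the left and tdTomato only on the right. Gjc1 is left out of the panels. Krt20 and Cldn4 are above 0 and Ocln and Epcam below 0 under all of those shown, while many bright genes such as Cdh1 and Ctnna1 cross 0 with median centring.

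Further genes of the same pathways are given by role, beside 5.1% of all genes at least 2-fold higher in double-positive and 6.15% in tdTomato-only cells. Of 24 further tight junction and polarity genes 19 had a ratio, with 0 at 2-fold in either direction in each comparison. Of 20 further adherens junction genes, 0 of 14 were 2-fold higher in double-positive and 1 of 13 in tdTomato-only cells. That gene was Camsap3, which anchors microtubule ends near the apical side, at log2 1.20 (612.7 and 636.2, then 538.2 and 872.5). Of 12 hemidesmosome and basement membrane genes 11 had a ratio, and Itgb4, the integrin of hemidesmosomes, alone was 2-fold higher, in tdTomato-only cells (1.29). Of 19 plakin and intermediate filament genes, 8 had a ratio and 0 reached 2-fold. All these calls are by the loess ratios, and other settings took further genes of each list to 2-fold in either direction. In the authors' deposited table Lmnb2 was at -1.24 and -1.18, Lama5 at 1.74 and 1.45, and Ildr1 at 1.14 in double-positive cells. After median centring Nectin3 was at -1.32 and -1.26.

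Of 18 regulators of epithelial genes (snail, zeb, grainyhead and Klf factors), Klf4, a factor of differentiating epithelium, was the only gene at 2-fold after loess. Its spots were 731.4 and 1716, then 701.7 and 3741, with log2 ratios of 1.90 and 3.05. Like Krt20, it was ordered EGFP only, double positive, tdTomato only. Zeb1, a repressor of epithelial genes that lymphocytes also express, had dim spots of 74.59 and 129.8, then 74.32 and 129.6. Its ratio in double-positive cells was 0.93 after loess and 3.52 in the authors' deposited table.

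Markers of other cell types were checked beside these results. Of 9 T cell and intraepithelial lymphocyte markers with a ratio, 9 were at least 2-fold higher in double-positive and 6 in tdTomato-only cells, with summed spot medians of 2288 and 13506, then 2221 and 6309. Paneth cell markers were 2-fold higher for 7 of 7 and 6 of 7, and myeloid or mast cell markers for 3 of 8 and 1 of 5. Their part in the members' ratios was not tested. Endothelial and fibroblast or smooth muscle markers had 0 genes at 2-fold higher in either comparison, and the endothelial members Cdh5 and Cldn5 were above background in no channel. Cdh1, Cdh17 and Epcam, which define this epithelium, were above background in all 4 channels.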

How the data were processed

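Per the labels, amplified RNA of the sorted cells was labelled with Cy3 or Cy5 and read on Toray arrays. The authors deposited spot median intensities, from 3 scanner gains per the file headers, and normalized log2 ratios. From the values, the log2 ratios were blank-subtracted, put over EGFP only and centred at a median of 0.

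Intensities were corrected with normexp (offset 50, no local background) and loess in limma 3.58.1 (R 4.3.3), where control and marked spots had weight 0. Each array had 27456 spots, 2736 of them blank, and median spot intensities of 98.3 and 104, then 98.2 and 108. The number of arrays limits the precision. The pipeline was run on simulated arrays with known changes, up or down at random, in bright probes alone. That run does not cover changes in dim probes or counts as unequal as those seen here.

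A gene's value is the mean over its probes above background. Annotated symbols were updated through RefSeq GRCm38.p6 (12622 current, 3946 updated, 59 ambiguous, 3 unmatched), and 6842 probes were unnamed. Genes were named where they reached 2-fold, were among the 3 brightest of a family, or were fixed by name (Cdh1, Ctnnb1, Epcam, Tjp1, Ocln, Krt8, Krt18, Krt19, Krt20, Cdh17). Exceptions are marked where they stand, or were given with their family. The members and lists were chosen with earlier results of these data known.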

Additional observations from a re-analysis of the deposited data

Results flagged for a closer look

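Members whose ratio to EGFP only had opposite signs in the 2 Cy3 populations, both after loess and in the authors' deposited table, are given here, and none of these differences was tested. In double-positive and tdTomato-only cells the log2 ratios were 0.42 and -0.040 for Cdh1, 0.66 and -0.076 for Cldn2, and 0.37 and -0.16 for Ctnnb1. They were 0.36 and -0.066 for Pkp1, 0.097 and -0.0019 for Dsg2, and -0.12 and 0.062 for Gja4. Gja4 alone was the higher in tdTomato-only cells. After loess, the tdTomato-only values of Cdh1, Cldn2, Pkp1, Dsg2 and Gja4 were smaller than the SD of the EGFP-only repeat (0.083). By these ratios Ctnnb1 alone had both values beyond it. In the authors' deposited table the tdTomato-only values were -0.43 for Cdh1, -0.48 for Cldn2, -0.27 for Pkp1, -0.2 for Dsg2 and 0.75 for Gja4. Ctnnb1 had 0.08 and -0.51 there. That SD is of normalized Cy5 levels and is not the error of a Cy3 over Cy5 ratio. Median centring made the double-positive ratios of Cdh1, Cldn2, Ctnnb1, Dsg2 and Pkp1 negative as well.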

How the results depend on the processing

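No paired analysis was possible because each comparison rests on 1 array with no replicate, and for the same reason no sample could be left out. Of 528 values of the named genes under alternatives, 339 stayed within the SD of the EGFP-only repeat, 189 moved further and 0 reversed a 2-fold call. A reversal meant a change of sign, which could count only for the 2-fold ratios of Gjc1, Krt20, Cldn4 and Krt27. A call that fell under 2-fold was not a reversal, as for Cldn4 (0.72) and Krt27 (0.46) in tdTomato-only cells after median centring. The limit of 4 SD, the lack of a filter and the brightest probe alone reuse the loess ratios. A gene read by 1 probe could not move under them, so the 339 do not measure stability. In double-positive cells the count of members 2-fold higher went from 2 to 4 with the deposited ratios and 4 with an offset of 16, and the count lower from 0 to 1, 2 and 1 with the deposited ratios, blank subtraction and median centring. In tdTomato-only cells the count higher went from 4 to 2 with median centring, 3 with quantile normalization, 5 with the deposited ratios, and 6 with blank subtraction and with an offset of 16, and the count lower from 0 to 1, 3 and 1 with the deposited ratios, blank subtraction and median centring. Between the Cy3 populations the count higher went from 0 to 1 with the deposited ratios, with a limit of 4 SD and with the brightest probe, and the count lower from 1 to 0 with quantile normalization. The members' median in double-positive cells (0.09) became 0.24 with blank subtraction, -0.24 with median centring and 7.94e-04 with quantile normalization. In tdTomato-only cells (0.04) it became -0.13 with the deposited ratios and -0.29 with median centring. The cause was not tested. Over all genes, 601 higher and 40 lower in double-positive cells became 1516 and 435 with the deposited ratios, 1172 and 402 with blank subtraction, 364 and 740 with median centring, 515 and 100 with quantile normalization, and 838 and 79 with an offset of 16. In tdTomato-only cells 700 and 135 became 1595 and 864, 1225 and 593, 407 and 850, 578 and 247, and 940 and 225 in the same order. Between the Cy3 populations 92 and 32 became 216 and 216 with the deposited ratios, 206 and 164 with blank subtraction, and 123 and 59 with an offset of 16. Spots near background limit the size of any ratio, as for Gjb5 and Cdh4.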
